A study of Mus musculus with 6 samples.

Results

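Marker genes of the resident liver macrophage, the Kupffer cell, were followed in whole-liver RNA from acute ethanol-exposed and control mice. The genes were taken by name from the deposited expression matrix, Clec4f, Adgre1, Csf1r, Vsig4, Timd4, Marco, Cd163, Cd5l, Folr2 and Lyz2, and all 10 were found among its 28880 genes. All animals were male wild type C57BL/6J mice of 6 to 8 weeks, and every library carries the same batch label. The 3 ethanol mice were fasted for 12 h, were given 6 g/kg ethanol once by mouth as a 50% solution, and their livers were taken 24 h later. The 3 control mice were kept without ethanol. No fast is stated for the controls, so the ethanol and a difference in feeding before it cannot be told apart. With 3 libraries per group behind each test, the comparison asks how the marker genes stood in the liver 24 h after a single large dose.

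Kupffer cells line the liver sinusoids, where they meet blood that has just left the gut. They take up bacteria, complement-coated particles, dying cells and old red blood cells, and they depend on signals through the CSF1 receptor to survive. Their identity genes are maintained by factors such as PU.1, LXR alpha, ID3, ZEB2 and MAF-family proteins. In the liver they are long-lived and mostly renew themselves, although blood monocytes can fill an emptied niche and take on the same genes with time. In RNA from a whole liver, fewer Kupffer cells and less RNA of a marker per cell cannot be told apart. The liver identity of the libraries was plain, since albumin (Alb) had an FPKM of 24933 to 31582 in every one of them.

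The libraries held 60514417 to 74210869 counts, and replicates of a group correlated at 0.969 to 0.993 on the log2 scale, with ethanol replicate 3 the farthest from its group (0.969 and 0.973 against its fellows). Levels are given on the following scales. FPKM, as deposited, counts fragments per kilobase of transcript relative to sequencing depth, and it allows levels of different genes to be compared. CPM, the counts of a gene relative to the library total, were scaled here by the trimmed mean of M-values (TMM), which assumes that most genes do not change. Its factors were 0.768 to 0.836 in the ethanol libraries and 1.26 to 1.27 in the controls. For the markers and for each list, the DEGs counted with library size alone stand beside those with TMM. With TMM the median log2 fold change of the 16717 genes tested was -0.043, and with library size alone it was -0.71. A gene was called a differentially expressed gene (DEG) at an adjusted p below 0.05 in the edgeR quasi-likelihood test with an absolute log2 fold change above 1.

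The promoters of 8 of the 10 genes were found by symbol in RefSeq, and 3 of them are shown because they span the range of letters seen in the 8, from several matches to none. They were chosen after their letters were seen. Each run covers the 250 bases before the gene's start on GRCm38.p6, 5′ to 3′ on the gene's strand. Capitals mark GAGGAA (the purine-rich core that PU.1 and its relatives bind) and TGCTGA (a half-site of MAF-family proteins), searched on both strands. AGGTCA, a half-site of nuclear receptors such as LXR alpha, was searched as well, and the matches shown do not overlap. Vsig4 lies at chrX:96293439-96293688 (minus strand), Cd5l at chr3:87357631-87357880 (plus strand) and Cd163 at chr6:124304401-124304650 (plus strand).
Vsig4: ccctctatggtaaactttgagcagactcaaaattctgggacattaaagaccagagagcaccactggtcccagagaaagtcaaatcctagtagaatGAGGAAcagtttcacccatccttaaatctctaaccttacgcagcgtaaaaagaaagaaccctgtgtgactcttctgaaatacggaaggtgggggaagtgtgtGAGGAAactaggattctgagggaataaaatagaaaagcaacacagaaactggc
Cd5l: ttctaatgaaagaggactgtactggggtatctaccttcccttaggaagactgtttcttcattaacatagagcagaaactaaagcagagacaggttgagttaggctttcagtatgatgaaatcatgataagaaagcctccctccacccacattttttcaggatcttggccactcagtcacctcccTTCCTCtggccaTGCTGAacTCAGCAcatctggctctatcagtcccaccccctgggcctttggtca
Cd163: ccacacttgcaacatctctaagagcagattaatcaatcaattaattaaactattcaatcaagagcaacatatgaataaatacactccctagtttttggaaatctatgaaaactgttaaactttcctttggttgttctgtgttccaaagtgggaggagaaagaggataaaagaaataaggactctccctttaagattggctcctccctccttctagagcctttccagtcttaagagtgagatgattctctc
Vsig4 held 2 copies of GAGGAA, 155 and 53 bases before the start. Cd5l held 1 copy in the reverse orientation, 66 bases before the start, next to TGCTGA in both orientations at 54 and 46 bases. Cd163 held none of the 3 motifs. Folr2 has 2 start sites in RefSeq, so the 8 genes gave 9 windows, of which 3 held GAGGAA, 2 held AGGTCA and 6 held TGCTGA. Among 32851 RefSeq promoter windows of the same length, 23.3% held GAGGAA, 14.0% held AGGTCA and 16.1% held TGCTGA. A match describes the letters and is no evidence of binding.

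On the FPKM scale the marker signal of the ethanol livers was below that of the controls for nearly every gene. The summed FPKM of the 10 genes was 48.3, 38.1 and 39.9 in the ethanol mice and 78.0, 88.0 and 89.5 in the control mice. All ethanol livers lay below all control livers, at 0.494 of the control mean (exact permutation test, two-sided, p = 0.1, the smallest that 3 against 3 can give). Of the 10 genes, 9 did not overlap between groups and were lower after ethanol. Among all genes tested, 57.4% were lower without overlap on this scale and 9.45% were higher, so a lower FPKM was shared by most genes tested. Folr2 alone overlapped. Ethanol replicate 1 had the highest FPKM of its group for 8 of the 10 genes.

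**Figure D1:**
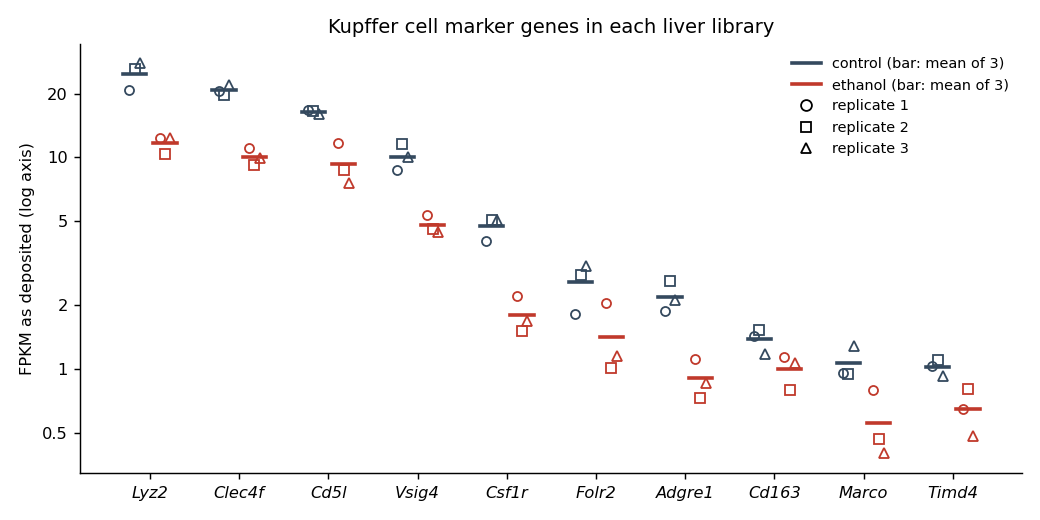
FPKM as deposited (log axis) of the 10 marker genes in each of the 6 liver libraries, with bars at the mean of 3 mice per group and a symbol for each replicate number. The control points lie above the ethanol points for 9 genes, and only Folr2 overlaps, where ethanol replicate 1 (2.06) lies above control replicate 1 (1.82).

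In the control livers Lyz2 was the most abundant of the 10 on the FPKM scale (24.9 ± 3.65, SD, n = 3), and its range overlapped that of Clec4f (20.8 ± 1.13). Cd5l (16.5 ± 0.313), Vsig4 (10.1 ± 1.44) and Csf1r (4.72 ± 0.601) followed without overlap between neighbours. Folr2 (2.56 ± 0.654) and Adgre1 (2.20 ± 0.366) overlapped each other. Cd163 (1.38 ± 0.183), Marco (1.06 ± 0.190) and Timd4 (1.02 ± 0.0932) were the least abundant, and neighbours among these overlapped. These levels and their order are descriptions of whole liver and were not tested.

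Clec4f encodes a galactose-binding C-type lectin that in mice is restricted to Kupffer cells. It is listed as ENSMUSG00000014542 on chromosome 6, 83621524 to 83633169. Its FPKM was 11.1, 9.16 and 9.97 in the ethanol mice and 20.7, 19.7 and 22.0 in the control mice. After TMM scaling its CPM was 37.7, 29.0 and 34.4 against 43.2, 41.3 and 46.1. The groups did not overlap on either scale, with ethanol lower. The log2 fold change was -0.37 (SE 0.12, 95% interval -0.66 to -0.078, adjusted p = 0.0471), so Clec4f fell by the test but by less than the DEG threshold. This call was close to the limit. The adjusted p was 0.116 without ethanol replicate 2, 0.110, 0.0949 and 0.154 without control replicates 1, 2 and 3, and between 0.000336 and 0.154 over all settings.

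Csf1r encodes the receptor for CSF1 and IL34, the survival signal of resident macrophages. It is listed as ENSMUSG00000024621 on chromosome 18, 61233670 to 61264206. Its FPKM was 2.21, 1.51 and 1.68 in the ethanol mice and 4.03, 5.07 and 5.07 in the control mice. Its TMM-scaled CPM was 17.7, 11.2 and 13.5 against 19.7, 24.8 and 24.9, again without overlap. The log2 fold change of -0.71 (SE 0.19, 95% interval -1.16 to -0.26, adjusted p = 0.0215) had the largest size of the 10 in the TMM fit. Csf1r thus fell by the test, below the fold that makes a DEG. The adjusted p was 0.0567 without ethanol replicate 2, 0.0791 without control replicate 2 and 0.0807 without control replicate 3.

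Adgre1 encodes F4/80, the surface receptor most used to mark mouse macrophages. Adgre1 (ENSMUSG00000004730) lies on chromosome 17, 57665691 to 57790527. Its FPKM was 1.12, 0.731 and 0.856 in the ethanol mice and 1.88, 2.60 and 2.11 in the control mice. The TMM-scaled CPM was 5.01, 3.04 and 3.88 against 5.17, 7.15 and 5.80. The groups were separate on both scales, though ethanol replicate 1 came close to control replicate 1 after TMM. A log2 fold change of -0.60 (SE 0.24) did not pass the test (adjusted p = 0.0796, 95% interval -1.17 to -0.039).

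Vsig4 encodes CRIg, the complement receptor with which Kupffer cells catch bacteria from the blood. Vsig4 (ENSMUSG00000044206) lies on chromosome X, 95290809 to 95337044. Its FPKM was 5.33, 4.58 and 4.42 in the ethanol mice and 8.67, 11.5 and 9.99 in the control mice, without overlap. Its TMM-scaled CPM was 10.9, 8.72 and 9.16 against 10.9, 14.6 and 12.6, where ethanol replicate 1 met control replicate 1. Its log2 fold change was -0.40 (SE 0.16, adjusted p = 0.0827). The promoter with 2 copies of GAGGAA shown above belongs to this gene.

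Timd4 encodes TIM-4, a phosphatidylserine receptor for dying cells that marks long-resident Kupffer cells. Timd4 (ENSMUSG00000055546) lies on chromosome 11, 46701627 to 46735159. Its FPKM was 0.649, 0.805 and 0.483 in the ethanol mice and 1.04, 1.11 and 0.923 in the control mice. Its TMM-scaled CPM was 1.95, 2.26 and 1.47 against 1.91, 2.05 and 1.71, so that ethanol replicate 2 was the highest and ethanol replicate 3 the lowest of all 6. In the TMM fit the log2 fold change was 0.0015 (SE 0.26, 95% interval -0.60 to 0.61, adjusted p = 0.997), an interval wide enough to hold a change in either direction. Its sign turned with the scaling and was negative with library size alone (-0.66).

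Of the scavenger receptors, Marco binds bacteria and Cd163 clears haptoglobin-bound haemoglobin. Marco (ENSMUSG00000026390, chromosome 1, 120402267 to 120432753) had an FPKM of 0.796, 0.468 and 0.399 in the ethanol mice and 0.957, 0.952 and 1.28 in the control mice. On the TMM-scaled CPM the groups overlapped, with ethanol replicate 1 at 2.12 above the highest control at 2.10. Its log2 fold change was -0.26 (SE 0.34, adjusted p = 0.564).

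Cd163 (ENSMUSG00000008845, chromosome 6, 124281615 to 124307486) had an FPKM of 1.14, 0.795 and 1.07 in the ethanol mice and 1.43, 1.53 and 1.18 in the control mice. It kept the highest ratio of ethanol to control FPKM of the 10, at 0.726. Its TMM-scaled CPM was 8.64, 5.59 and 8.14 against 6.62, 7.09 and 5.46, and ethanol replicate 2 lay among the controls. In the TMM fit the log2 fold change was 0.22 (SE 0.21, 95% interval -0.28 to 0.72, adjusted p = 0.426), and with library size alone it was -0.45. An antisense long noncoding gene that overlaps Cd163 had at most 2 counts in any library.

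Cd5l encodes AIM, a protein that macrophages secrete into the blood and that binds lipid and cell debris. Cd5l (ENSMUSG00000015854) lies on chromosome 3, 87265188 to 87278380. Its FPKM was 11.6, 8.69 and 7.56 in the ethanol mice and 16.7, 16.6 and 16.1 in the control mice. The controls were nearly equal and the ethanol mice spread widely. After TMM the CPM was 32.7, 22.7 and 21.5 against 28.7, 28.7 and 27.9, so that ethanol replicate 1 was above all controls and both others below. Its log2 fold change was -0.15 (SE 0.17, adjusted p = 0.502).

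Folr2 encodes folate receptor beta, carried by many resident macrophages. Folr2 (ENSMUSG00000032725) lies on chromosome 7, 101489195 to 101506401. Its FPKM was 2.06, 1.01 and 1.15 in the ethanol mice and 1.82, 2.79 and 3.07 in the control mice, with overlap from replicate 1 of each group. Its TMM-scaled CPM was 4.41, 2.01 and 2.51 against 2.40, 3.67 and 4.06, and ethanol replicate 1 was the highest of all 6. The log2 fold change was -0.18 (SE 0.35, adjusted p = 0.706), and it was 0.036 without ethanol replicate 2. A long noncoding gene on the opposite strand overlaps Folr2, with 34 to 65 counts in the ethanol libraries and 63 to 143 in the controls, and whether the counting used strand is not given in the sources used here.

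Lyz2 encodes lysozyme M, an enzyme that breaks bacterial cell walls and is also made by monocytes and neutrophils. It is listed as ENSMUSG00000069516 on chromosome 10, 117113236 to 117118226. Its FPKM was 12.3, 10.4 and 12.3 in the ethanol mice and 20.8, 26.1 and 27.8 in the control mice. Its TMM-scaled CPM was 22.3, 17.5 and 22.6 against 23.1, 29.2 and 31.1, without overlap but with a narrow gap at control replicate 1. The log2 fold change was -0.42 (SE 0.16, 95% interval -0.79 to -0.048, adjusted p = 0.0675). Its near-identical copy Lyz1 had 0 counts in 5 libraries and 8 in control replicate 3, and how the authors treated reads that fit both is not given in the sources used here.

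Counted together, 0 of the 10 genes were DEGs in the TMM fit, where 13.8% of all genes tested were DEGs with lower and 10.4% with higher expression. DESeq2 also called 0, where it called 10.5% of 26459 genes lower. At an unadjusted p below 0.05, 5 of the 10 were lower in edgeR, against 26.7% of all genes. At the adjusted p alone, Clec4f and Csf1r were lower and none was higher, against 21.5% of all genes in each direction and 43.0% in either. Without overlap in TMM-scaled CPM, 4 were lower (Clec4f, Adgre1, Csf1r and Lyz2) and 0 higher, against 31.0% and 28.0% of all genes. The median log2 fold change of the 10 was -0.32, and 8 were negative, while Timd4 and Cd163 were not. With library size alone, 5 became DEGs with lower expression and 0 with higher, against 32.2% and 5.06% of all genes. These were Clec4f (-1.04), Adgre1 (-1.28), Vsig4 (-1.07), Csf1r (-1.39) and Lyz2 (-1.09), and the median of the 10 was -0.99. Relative to the median of all genes, the marker median was -0.27 with TMM and -0.28 with library size alone. It was -0.43 without ethanol replicate 1, -0.15 without ethanol replicate 2 and -0.14 without ethanol replicate 3.

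**Figure D2:**
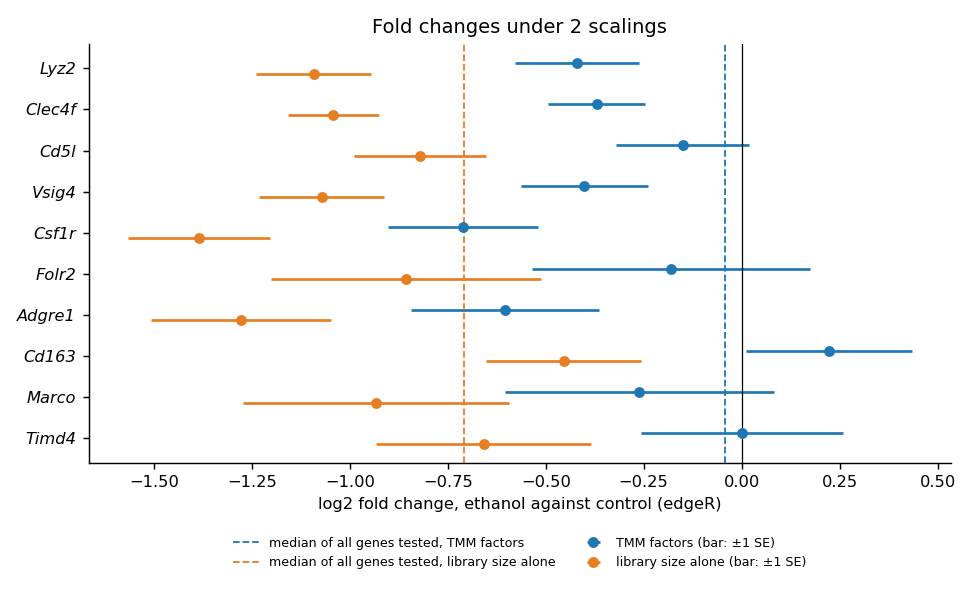
Log2 fold change of each marker gene, ethanol against control, in edgeR with TMM and with library size alone (bars, 1 SE), with dashed lines at the median of all genes tested (-0.043 and -0.71). The 10 genes move together with the dashed line from one scaling to the other, and Csf1r lies farthest below it and Cd163 farthest above it in both.

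The make-up of the marker signal within a library does not depend on the scaling between libraries. Csf1r made up 4.25% ± 0.312 of the summed FPKM in the ethanol mice and 5.53% ± 0.318 in the control mice (SD, n = 3, exact permutation p = 0.1). Adgre1 made up 2.13% ± 0.201 against 2.58% ± 0.330 (exact permutation p = 0.1). The gap was narrow, between ethanol replicate 1 (2.32%) and control replicate 3 (2.36%). Cd163 moved the other way, with 2.38% ± 0.293 against 1.63% ± 0.278 (exact permutation p = 0.1). For these 3 genes the groups did not overlap, and 0.1 is the smallest p that the design can give. Lyz2 (27.8% against 29.1%), Clec4f (24.0% against 24.5%) and Cd5l (21.9% against 19.4%) formed most of the signal in both groups and overlapped. Vsig4, Timd4, Marco and Folr2 overlapped as well, with exact permutation p from 0.4 to 0.9 over these 4. Without ethanol replicate 3, 5 genes did not overlap, but leaving out a library can only keep or raise this count.

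**Figure D3:**
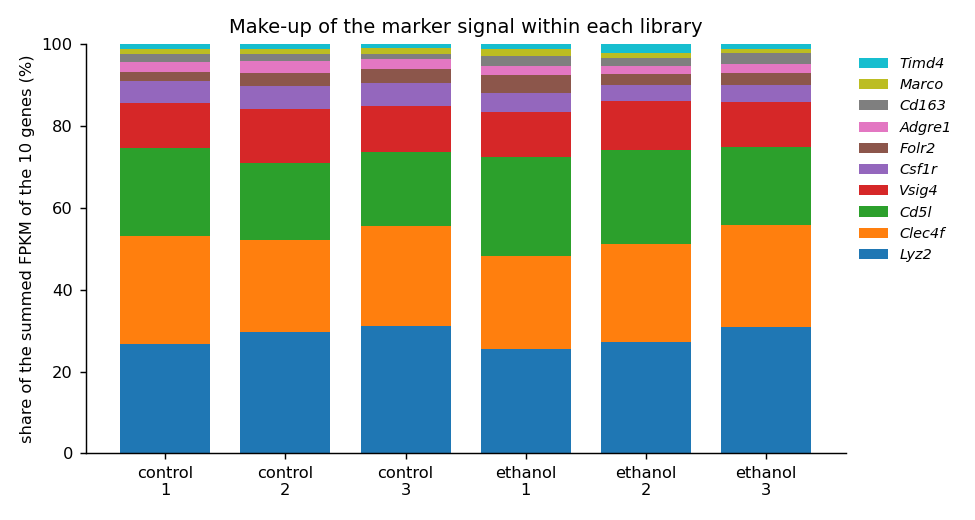
Share of each marker gene in the summed FPKM of the 10 genes (%), one stacked bar per library, 3 control and 3 ethanol. Lyz2, Clec4f and Cd5l fill most of every bar, the Csf1r band is thinner in every ethanol bar (3.96% to 4.58% against 5.17% to 5.76%) and the Cd163 band is thicker (2.09% to 2.67% against 1.31% to 1.84%).

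Other genes of tissue macrophages gave a yardstick within the library. C1qa, C1qb and C1qc, which macrophages transcribe to make the first complement component, were taken as the reference after the data were seen, from a list on which other genes fell (Slc40a1, Sirpa and Msr1 are given below). Their summed FPKM was 36.0, 28.7 and 36.2 in the ethanol mice and 40.3, 43.4 and 47.1 in the control mice, a ratio of 0.771. In the TMM fit C1qa (0.34, adjusted p = 0.143), C1qb (0.30, adjusted p = 0.129) and C1qc (0.24, adjusted p = 0.277) did not pass the test, and with library size alone their log2 fold changes were -0.33, -0.38 and -0.44. The log2 ratio of the summed markers to these genes was 0.42, 0.41 and 0.14 in the ethanol mice and 0.95, 1.02 and 0.93 in the control mice. The difference of -0.64 did not overlap between groups (exact permutation p = 0.1). Clec4f (-0.67), Adgre1 (-0.91), Cd5l (-0.47), Vsig4 (-0.69), Csf1r (-1.02) and Lyz2 (-0.71) were lower without overlap, 6 of the 10, where 37.0% of all genes tested were lower and 15.1% higher by the same measure. The median of this difference over the 15193 genes above 0 in every library was -0.31. Timd4 (-0.31), Marco (-0.61), Folr2 (-0.52) and Cd163 (-0.089) overlapped. The size of the difference depended on the reference. Against the summed FPKM of all 20 other tissue macrophage genes it was -0.71, and -0.74 without the C1q genes among them. Against the mean log2 FPKM of the same 20 genes, which weighs each gene equally, it was -0.24 (exact permutation p = 0.1), and without the C1q genes it was -0.17 with overlap between groups (exact permutation p = 0.2). The C1q transcripts are short, and with each library's trend over transcript length removed the fold changes were 0.13, 0.10 and 0.24 for C1qa, C1qb and C1qc, and -0.52 (adjusted p = 0.0694) for the long transcript of Csf1r. In that fit Clec4f did not pass either (-0.31, adjusted p = 0.0702), and the markers lower by the adjusted p were Vsig4 (-0.48, adjusted p = 0.0400) and Lyz2 (-0.54, adjusted p = 0.0223) instead, 2 of 10 where 18.0% of all genes were lower.

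**Figure D4:**
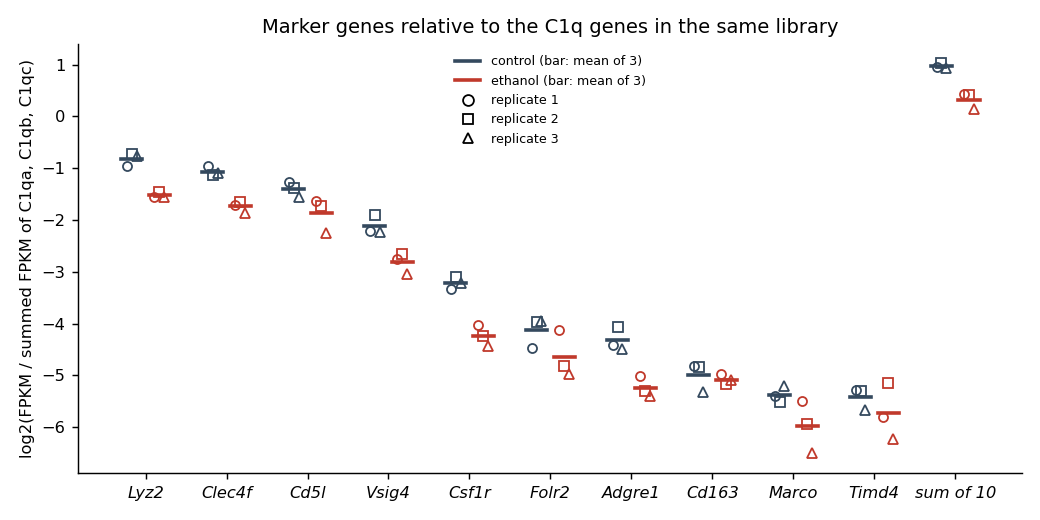
Log2 ratio of each marker gene's FPKM, and of the sum of the 10, to the summed FPKM of C1qa, C1qb and C1qc in the same library, with bars at the mean of 3 mice. The sum lies at 0.14 to 0.42 in the ethanol mice and 0.93 to 1.02 in the control mice, and Cd163 shows nearly equal means in both groups (-5.08 and -4.99).

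The ligands of the CSF1 receptor and genes for the receptor of CSF2 were read beside Csf1r. Csf1 (0.23, adjusted p = 0.366), Il34 (0.84, adjusted p = 0.0961), Csf2rb (0.54, adjusted p = 0.200) and Csf2ra (-0.55, adjusted p = 0.0875) gave 0 DEGs of 4, and with library size alone Csf1 (-0.44) and Csf2rb (-0.14) turned negative and Csf2ra became a DEG (-1.22). Il34, a ligand of the receptor that several tissues make locally, had a TMM-scaled CPM of 2.09, 1.64 and 0.935 in the ethanol mice and 0.916, 0.906 and 0.777 in the control mice. Ethanol replicate 3 stood near the controls, and without it Il34 was a DEG (1.11, adjusted p = 0.0135).

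Of 12 transcription factors tied to Kupffer cell identity, 3 were upregulated and 1 was downregulated as DEGs, and all 12 were tested. With library size alone these counts were 2 and 3. Id3, an inhibitor of E-protein factors needed for Kupffer cells to form, had an FPKM of 84.7, 127 and 35 in the ethanol mice and 9.76, 10.5 and 10.5 in the control mice (log2 fold change 3.65, adjusted p = 0.0008). Its relative Id1 rose from 1.45, 2.08 and 1.47 to 6.52, 8.80 and 6.57 (2.78, adjusted p = 0.000205). Both are used by many liver cells other than macrophages. Irf8, a factor of the monocyte lineage, was a DEG at 1.01 (adjusted p = 0.006), a call that was lost in 9 of the 16 other settings, library size alone among them.

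Zeb2, which maintains macrophage identity across tissues, was downregulated, with an FPKM of 0.0762, 0.0819 and 0.0843 in the ethanol mice and 0.275, 0.317 and 0.352 in the control mice (-1.29, adjusted p = 0.00217). Nr1h3, which encodes LXR alpha and is also active in hepatocytes, fell by 0.88 (adjusted p = 0.0132) without reaching the DEG threshold. Its partner Rxra rose by 0.56 (adjusted p = 0.00528), but its FPKM overlapped between groups and its log2 fold change was -0.11 with library size alone. Spic (-0.26), Spi1, which encodes PU.1 (0.29), Maf (-0.64), Rbpj (0.060) and Smad4 (-0.29) did not pass the test. Spi1 (-0.40) and Rbpj (-0.62) turned negative with library size alone. Of the 16 other settings, Maf was a DEG in 3 and Nr1h3 in 4.

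Among 20 other tissue macrophage genes, 2 were upregulated and 5 were downregulated, and the median was 0.27. With library size alone 0 were upregulated and 8 downregulated, and the median turned to -0.41. With one library left out 1 to 3 were upregulated and 2 to 5 downregulated. Slc40a1, which encodes the iron exporter ferroportin, had an FPKM of 1.33, 1.31 and 0.973 in the ethanol mice and 6.41, 5.13 and 5.02 in the control mice (-1.52, adjusted p = 0.000545). Sirpa, an inhibitory receptor that reads CD47, fell (-1.28, adjusted p = 0.00528), as did the scavenger receptor Msr1 (-1.23, adjusted p = 0.0132). Msr1 was no DEG without control replicate 2 or 3. Hmox1, the haem-degrading enzyme, rose (1.68, adjusted p = 0.0083), with ethanol replicate 3 at an FPKM of 17.6 and the others at 7.66 and 7.66, against 5.22 to 6.00 in the controls. Cd68, a lysosomal glycoprotein, was a DEG in the TMM fit (1.12, adjusted p = 0.0252), although its FPKM overlapped between groups and its call was lost without ethanol replicate 1 or 2 or any one control. The calls on Slc40a1 and Sirpa held in every setting run, and those on Hmox1 and Cd68 were lost with library size alone.

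Of 12 genes for innate sensing and cytokines, 6 had enough counts to be tested, and 2 were upregulated and 0 downregulated, or 2 and 1 with library size alone. Cd14, the co-receptor for bacterial lipopolysaccharide, had an FPKM of 18.0, 17.1 and 21.5 in the ethanol mice and 0.633, 1.79 and 1.20 in the control mice (4.64, adjusted p = 0.000227). In every ethanol liver Cd14 thus had a higher FPKM than each of the 10 markers, and in the controls its range overlapped that of Timd4. Il10, an anti-inflammatory cytokine, rested on 20, 26 and 32 counts against 7, 5 and 5 (2.72, adjusted p = 0.00699). Tlr4 (-0.92, adjusted p = 0.549), Ly96 (-0.80, adjusted p = 0.0881), Il1b (-0.71, adjusted p = 0.338) and Myd88 (0.32, adjusted p = 0.546) did not pass the test. The FPKM of Ly96 was lower after ethanol without overlap. The median of the tested genes was -0.20 with TMM and -0.88 with library size alone.

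Marker lists of other cells were read beside the Kupffer cell markers. Of 14 monocyte and recruited macrophage genes, 12 were tested, and 1 was upregulated and 2 were downregulated, or 0 and 3 with library size alone. Spp1, the most abundant of them, which encodes osteopontin, did not pass the test (-0.61, adjusted p = 0.192). Ccr2, the receptor that brings monocytes into tissue, had 0 counts in each ethanol library against 37, 45 and 56, which is at least 10.1-fold lower when 3 counts per library are taken as the floor. Its ligand Ccl2 had 0, 0 and 4 counts against 44, 12 and 32, and its call as a DEG was lost without ethanol replicate 1 or 2 or any one control. Plac8, found in monocytes and other leukocytes, was upregulated (1.64, adjusted p = 0.00103). Of the 7 pan-leukocyte genes, Ptprc, which encodes CD45, was a DEG (-1.10, adjusted p = 0.0151), a call lost without ethanol replicate 2 or control replicate 1 or 3 and with the length trend of its long transcript removed, and with library size alone 2 of the 7 were downregulated. Laptm5, a lysosomal protein of blood cells, was higher by the adjusted p alone (0.72, adjusted p = 0.00745), and stood at 0.045 with library size alone.

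Of 11 neutrophil genes, 7 were tested, 5 were upregulated and 0 downregulated with either scaling, and their summed FPKM was 2.64 to 15.03 in the ethanol mice and 1.02 to 1.10 in the control mice. S100a8, a subunit of calprotectin, had 33, 40 and 160 counts against 0, 0 and 4, and its partner S100a9 had 48, 103 and 339 against 23, 9 and 15. Mmp8, a neutrophil collagenase, had 12, 11 and 53 counts against 0 in every control, at least 11.5-fold higher. That bound uses the mean of the ethanol mice, and it would be lower without ethanol replicate 3 (TMM-scaled CPM 0.971 against 0.209 and 0.180). Csf3r (0.37, adjusted p = 0.690) and Mmp9 (0.56, adjusted p = 0.676) did not pass the test. Csf3r had 54, 23 and 157 counts against 77, 111 and 80, and Mmp9 had 8, 4 and 69 against 35, 23 and 26. For both, ethanol replicates 1 and 2 had fewer raw counts than every control. Ethanol replicate 3 carried the most of these transcripts, and Mpo was at 0 in 5 libraries.

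Of 9 T and NK cell genes, 6 were tested, with Cd4 downregulated (-1.78, adjusted p = 0.0078) and none upregulated. With library size alone 2 were downregulated, and with one library left out 1 to 3 were. Of 5 B cell genes Ms4a1 was downregulated, on 4, 0 and 0 counts against 28, 20 and 25, a call lost without ethanol replicate 2 or 3 or any one control. Ighm, the immunoglobulin M heavy chain and the most abundant of the 5, did not pass the test (-0.66, adjusted p = 0.0555), and with library size alone 2 B cell genes were downregulated. Of 7 dendritic cell genes, 5 were tested with 0 DEGs, but 1 was downregulated in 10 of the 16 other settings, library size alone among them. In 8 of these it was Zbtb46, a dendritic cell transcription factor named after its values were seen, which fell by 0.99 in the TMM fit (adjusted p = 0.0207), just short of the DEG threshold. Clec9a, a receptor for dead cells, was the most abundant of these (-0.20, adjusted p = 0.767). Sinusoidal endothelial cells share the niche of Kupffer cells, and of their 10 genes 4 were downregulated and 1 was upregulated, with a median of -0.87. With library size alone 6 were downregulated and 1 upregulated, with a median of -1.53. Oit3 (-1.30, adjusted p = 0.00137), the inhibitory Fc receptor Fcgr2b (-1.12, adjusted p = 0.00168) and Dnase1l3 (-1.21, adjusted p = 0.00237) were among those that fell, whereas Lyve1, the hyaluronan receptor, rose from an FPKM of 1.37 to 1.48 up to 6.01 to 17.01 (3.59, adjusted p = 0.000692). The call on Fcgr2b was lost without ethanol replicate 3 and with the length trend removed. The lectin Clec4g, the most abundant of the 10, fell by 0.998 on the log2 scale (adjusted p = 0.00575), just short of the DEG threshold. Clec4g was a DEG in 12 of the 16 other settings.

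Stellate cell genes gave 0 DEGs of 8, or 2 downregulated with library size alone, and the most abundant, Ecm1, was higher by the adjusted p alone (0.65, adjusted p = 0.00666), with overlapping FPKM. Among 4 tested cholangiocyte genes only Sox9 was a DEG (2.78, adjusted p = 5.61e-05), also with library size alone. Hepatocyte genes gave 3 upregulated DEGs of 12, the ethanol-oxidising enzyme Cyp2e1 (1.45, adjusted p = 0.000296), the apolipoprotein Apoa1 (1.24, adjusted p = 0.000549) and Pck1 of gluconeogenesis (1.03, adjusted p = 0.0213), all of them lost with library size alone. Pck1 was a DEG in 4 of the 16 other settings, and without ethanol replicate 1 or 2 or any one control it was not. The part of these other cells in the marker results was not tested.

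**Figure D5:**
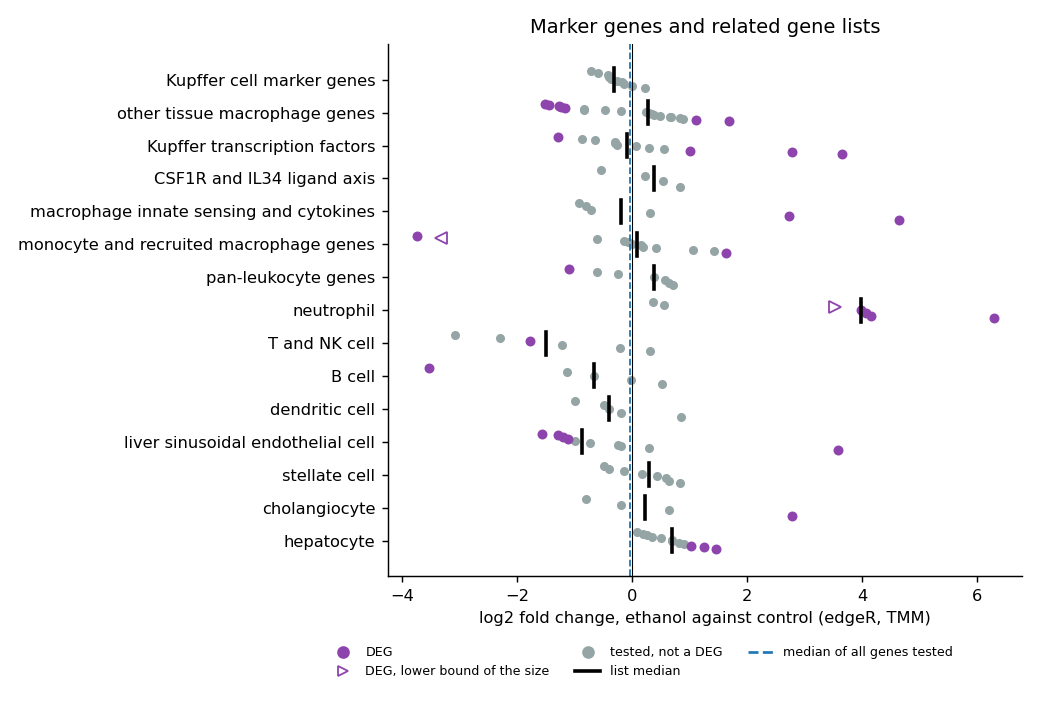
Log2 fold change, ethanol against control (edgeR, TMM), of each tested gene in the marker set and in 14 related lists, with DEGs in purple, list medians as black bars and the median of all genes (-0.043) dashed. Open triangles are the lower bounds for Ccr2 and Mmp8, and no marker gene of the Kupffer cell is purple, while the neutrophil median lies at 3.98 and the sinusoidal endothelial median at -0.87.

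The tested genes whose profile over the 6 libraries was most like the mean standardised profile of the 10 were Gm47939 (Pearson r = 0.990), Crip1 (r = 0.987), Gm43549 (r = 0.986), Galk2 (r = 0.980) and Mx1 (r = 0.980). The 6 points include both groups and share their scaling, so these values describe likeness in these livers and nothing more.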

How the data were processed

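Liver RNA of 3 ethanol and 3 control mice was extracted with TRIzol and sequenced by the authors as paired-end reads on an Illumina NovaSeq. The authors deposited one table of raw counts and FPKM per gene. Aligner, counter and strand setting are not given in the sources used here. The processing notes name GRCm38 and mm10, but of 27049 genes found in GENCODE M21 (GRCm38) 539 had the same start and end, and 0 of the 10 markers did, so gene coordinates are printed as deposited, with their build unsettled. A count column that matches no library (1) was not used, and 82 symbols occur more than once in the table.

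Deposited counts were tested with edgeR 4.0.16 in R 4.3.3 (glmQLFit and glmQLFTest, TMM, filterByExpr) on all 6 libraries with no covariate, and p-values were adjusted by Benjamini-Hochberg over the 16717 genes tested. Fold changes are ethanol against control. The square root of the common dispersion was 0.299 and the median SE of a log2 fold change 0.257. The fit was first run on simulated counts. These used the common dispersion for all genes and took the TMM factors as true, so they cannot test the scaling between libraries. Alternatives were DESeq2 1.42.0, limma 3.58.1 on log2(FPKM + 1) and log2(FPKM + 0.1), other scalings and filters, a replicate block and leaving out each library. The fit with the length trend removed and the ratios to C1q and other macrophage genes were added after seeing the data. Shares and ratios were compared by two-sided exact permutation tests over mice. Floors are 3 counts and cover counting error only.

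Markers and lists were chosen with earlier results of these data known. Named are all markers, ligand-axis genes and, with an exception below, transcription factors, and from other lists up to 3 DEGs with the smallest adjusted p in each direction and the gene with the highest mean FPKM. C1qa, C1qc, Mpo, Zbtb46, Csf3r, Mmp9, Tlr4, Ly96, Il1b and Myd88 fall outside this rule and were named after their values were seen. A gene of the transcription factor list is not reported here. Each library is labelled as a separate mouse, and no 2 libraries agreed within counting noise.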

Additional observations from a re-analysis of the deposited data

How the results depend on the processing

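Of the 10 markers, 0 were DEGs with TMM, median ratio factors, upper quartile factors, DESeq2 and both other filters. The same held with the replicate block, the length trend removed and each library left out. In these fits 8.33% to 16.5% of all genes were DEGs with lower expression. With the filter at a mean FPKM of 1, Timd4 and Marco were not tested, so its marker counts rest on the other markers. The number of markers that were DEGs with lower expression was 5 with library size alone, 2 with limma on log2(FPKM + 1), 5 on log2(FPKM + 0.1), and 2 by the adjusted p alone, where 32.2%, 10.2%, 29.7% and 21.5% of all genes were called lower. Markers lower by the adjusted p numbered 2 in the TMM fit, 7 with library size alone, 4 with upper quartile factors, 9 with both limma fits, 1 without the filter, 5 when only the 9608 genes averaging 1 FPKM or more were tested, and 0 to 4 when one library was left out. Of all genes, 21.5%, 48.3%, 24.8%, 51.7% and 51.9%, 12.3%, 27.0%, and 13.5% to 27.4% were lower by the same rules. With the length trend removed 2 markers were again lower by the adjusted p, but Vsig4 and Lyz2 in place of Clec4f and Csf1r, where 18.0% of all genes were lower. The median log2 fold change of the markers was -0.99, -0.76 and -0.95 with library size alone and the limma fits. Relative to all genes it was -0.50 with limma on log2(FPKM + 1). Among those 9608 genes the markers other than Timd4 and Marco gave -0.51 relative to all genes. The sign of Timd4 turned to -0.66 with library size alone, -0.094 with upper quartile factors, -0.023 with DESeq2, -0.30 and -0.61 with limma, and -0.027 without the filter, and leaving out one library gave -0.15 to 0.17. Cd163 turned to -0.45 with library size alone and to -0.25 and -0.43 with limma, and Folr2 ran from -0.58 to 0.036 with one library left out. Related lists held 15 DEGs with lower and 18 with higher expression in the TMM fit. These were 31 and 11 with library size alone, 28 and 11 with limma on log2(FPKM + 0.1), 7 and 11 among those 9608 genes, while higher ones were 7 with limma on log2(FPKM + 1) and 31 by the adjusted p alone. Shares of 3 markers did not overlap between groups, and 3 to 5 did not with one library left out. Dropping a library leaves the other shares as they were, so this count could only stay or rise and is no check. Over the same fits the difference in share, in percentage points, ran from -0.557 to -0.257 for Adgre1 and 1.46 to 4.03 for Cd5l. It ran from -1.56 to 0.511 for Clec4f, -0.761 to 0.236 for Vsig4, -0.134 to 0.190 for Marco and -0.203 to 0.596 for Folr2. The cause of these turns was not tested.

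Replicate numbers did not pair the mice (correlations of deviations -0.042, -0.027 and -0.0075). With the replicate block 0 markers were lower by the adjusted p (Clec4f 0.0725, Csf1r 0.0533) against 17.3% of all genes, Timd4 was at -0.017, and all genes gave 2000 DEGs lower and 1518 higher against 2301 and 1738.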
